A study of Mus musculus with 2 samples.

Results

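The miR-101 microRNAs were examined in the neonatal mouse forebrain through the 2 loci that the count tables hold, Mir101a and Mir101b. The members were the rows of both count tables whose Ensembl identifier maps to these names in the GENCODE annotation of the mouse assembly mm10, which gave 2 of the 1973 miRNA rows. The small RNA libraries came from total RNA of the forebrain of 1 animal each, pup 1 and pup 3, newborn mice (0 days) of strain B6NCrl. The labels give no genotype or treatment, and list sex as not collected and the same donor entry for both pups. There is 1 group of 2 libraries, so levels, their spread over the 2 pups (mean ± SD, n = 2 throughout) and differences between these libraries are given, and no condition is compared.

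MicroRNAs are short RNAs cut from hairpin precursors, and the bases near their 5′ end, the seed, pair with messenger RNAs that are then repressed. The miR-101 family is known for repressing Ezh2, the methyltransferase of Polycomb repressive complex 2. In the postnatal brain it is known for restraining excitability as neural circuits mature. Each hairpin can give a mature RNA from its 5′ arm (5p) and its 3′ arm (3p), and the known family activity is that of the 3p arm.

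The mature sequences show what the copies share and what tells their reads apart. They are from RefSeq (build GRCm38.p6, the same assembly as mm10), 5′ to 3′, with the seed, bases 2 to 8, in capitals. Mir101a and Mir101b both matched that table, with 2 mature arms each.
mmu-miR-101a-3p: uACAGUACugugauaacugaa
mmu-miR-101b-3p: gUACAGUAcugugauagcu
mmu-miR-101a-5p: uCAGUUAUcacagugcugaugc
mmu-miR-101b-5p: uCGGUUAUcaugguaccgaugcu
The annotated miR-101b-3p starts 1 base earlier than miR-101a-3p, which shifts its seed by 1 base, from ACAGUAC to UACAGUA. Both hairpins have the same base, G, in front of UACAGUA, so the shift lies in the annotated start and not in the sequence. The tables count reads per locus and do not record where reads start, so neither seed register could be measured here.

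Over the 18 bases where the annotated 3p sequences line up, 17 are identical and the substitution is A16G (positions from 1 at the 5′ end of miR-101a-3p, the miR-101a base first). When all 21 bases of miR-101a-3p are laid on the Mir101b hairpin, 20 are identical and A16G is again the difference. A read of the 3p arm that ends before that base is the same from both loci. The 5p arms differ more: 17 of 22 aligned bases are identical, with A3G, C11U, A12G, G15A and U17C.

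The hairpins are shown with both mature arms in capitals, since the locus counts can hold reads of either arm.
Mir101a hairpin: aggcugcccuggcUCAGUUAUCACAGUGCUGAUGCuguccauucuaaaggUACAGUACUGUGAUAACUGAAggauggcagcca
Mir101b hairpin: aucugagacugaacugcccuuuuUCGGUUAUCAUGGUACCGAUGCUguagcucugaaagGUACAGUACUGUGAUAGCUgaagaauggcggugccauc
In a global alignment 69.4% of 98 columns were identical. The longest identical run was 20 bases, from before the 3p arm to base 15 of miR-101a-3p. Between the arms lie 15 bases in Mir101a and 13 in Mir101b. RNAfold predicted a minimum free energy of −47.0 kcal/mol for the 83 bases of Mir101a, with 20 of 21 bases of the 3p arm paired. For the 97 bases of Mir101b it predicted −39.6 kcal/mol, with 18 of 19 bases of the 3p arm paired.

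Another annotated locus, Mir101c (ENSMUSG00000106183.1, chromosome 9, 3038669 to 3038743, minus strand, GRCm38), bears on how far the Mir101a count can be read. It has no row in the tables, so it has no value here. Its 19-base mature sequence is the same as bases 2 to 20 of miR-101a-3p.
mmu-miR-101c: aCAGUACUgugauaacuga
Laid on the Mir101c hairpin, miR-101a-3p has 19 of 21 identical bases and differs by U1C and A21U, at its ends. A read trimmed at both ends could map to both places and would then be counted at neither. Multi-mapping reads were 42.2% of all reads in pup 1 and 44.1% in pup 3, and how many were of miR-101 was not analysed here. Of 141767 GENCODE transcripts, those of Mir101a and of its host held the whole miR-101a-3p sequence, and those of Mir101b alone held the whole miR-101b-3p sequence.

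The copies lie in different kinds of host. Mir101a (ENSMUSG00000065451.1) lies on chromosome 4 at 101346945 to 101347027 on the minus strand, within exon 2 of the noncoding transcript E130102H24Rik-201, an exon of 573 bases. Mir101b (ENSMUSG00000065556.1) lies on chromosome 19 at 29135279 to 29135375 on the plus strand, in intron 8 of Rcl1. Rcl1 encodes a protein of ribosome biogenesis. Mir101b starts 775 bases after exon 8 of Rcl1, in an intron of 8638 bases. Neither copy has another annotated miRNA gene within 100 kb, so each stands alone and not in a cluster. Host transcripts were not measured in these small RNA libraries.

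**Figure D1:**
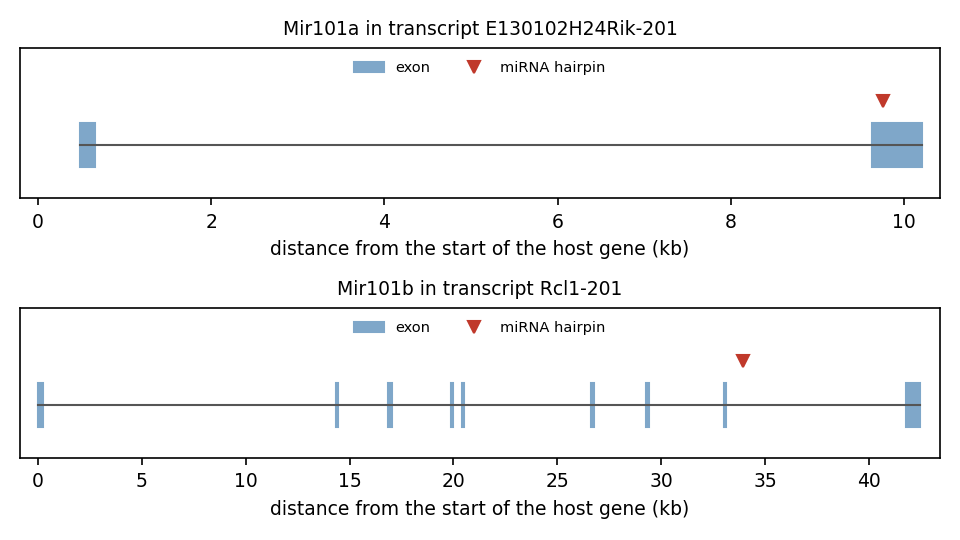
Position of each miR-101 hairpin (triangle) in its host transcript, with exons as boxes and distance from the start of the host gene in kb on the x axis. Mir101a falls in exon 2 of the noncoding host and Mir101b in the last intron of Rcl1, intron 8.

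Both copies were expressed in both forebrains, and Mir101b stood above Mir101a in each. Mir101b had 5391 counts in pup 1 and 3935 in pup 3, and Mir101a had 2272 and 1656. As a share of all counts on the strand of a miRNA locus (2742746 in pup 1 and 2427066 in pup 3), Mir101b held 0.197% in pup 1, with an exact Clopper-Pearson 95% interval of 0.191 to 0.202%. In pup 3 it held 0.162% (0.157 to 0.167%). Mir101a held 0.0828% in pup 1 (0.0795 to 0.0863%) and 0.0682% in pup 3 (0.0650 to 0.0716%). The lowest share of Mir101b lay above the highest share of Mir101a, so the 2 loci did not overlap. These intervals cover counting error only, since no molecular identifiers are named and amplified copies are counted as reads of their own.

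The mean level of Mir101b was 1793 ± 243 CPM (counts scaled to a total of 1000000 gene-strand counts) and that of Mir101a 755 ± 103 CPM. The 2 loci together held 0.255% ± 0.0347 of the counts. A miRNA read comes from 1 mature RNA, so counts were not divided by length. Per base of annotated hairpin the ratio of Mir101b to Mir101a was 2.03 ± 0.00206. Ligation in small RNA libraries favours some sequences, and its part in the ratio of the copies was not tested. In a whole forebrain, fewer cells that make a miRNA and less of it per cell cannot be told apart.

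**Figure D2:**
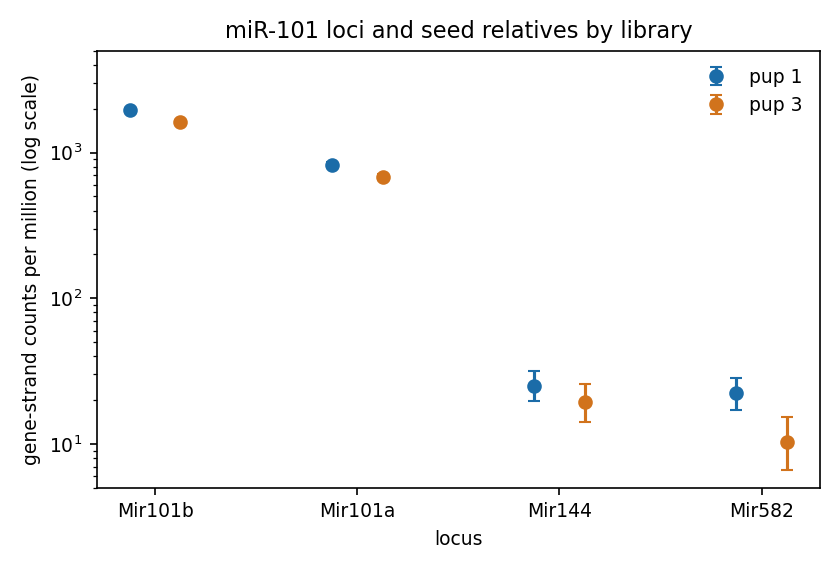
Gene-strand CPM on a log scale for both miR-101 loci and for 2 loci that share part of a seed with them, in pup 1 (blue) and pup 3 (orange), with 95% exact Clopper-Pearson intervals as bars. Mir101b and Mir101a lie between 682 and 1966 CPM and the seed relatives between 10.3 and 25.2 CPM.

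Among all loci both copies were moderately abundant. Both had at least 10 counts in both pups, the rule for a detected locus here, which 331 of the 1973 rows met (16.8%). By mean level Mir101b ranked 79 and Mir101a 101. The order around them could not be resolved at n = 2. Mir34c (1796 ± 519 CPM) stood next above Mir101b and Mir107 (1784 ± 453 CPM) next below, and both spans include its level. Mirlet7c-1 (814 ± 151 CPM) and Mir16-2 (739 ± 78.9 CPM) stood on either side of Mir101a. Within 1 SD of the mean of Mir101b lay the means of 12 other detected loci, and within 1 SD of Mir101a those of 11.

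The loci nearest to each copy in level lay on other chromosomes. Nearness was the Euclidean distance of log2(CPM + 1) over the 2 libraries. For Mir101b the nearest was Mir18, of the miR-17-92 cluster, at a distance of 0.05, with 2031 CPM in pup 1 and 1637 in pup 3. Next came Mir770 (distance 0.14, 1831 and 1724 CPM) and Mir195a (0.14, 1861 and 1756 CPM). For Mir101a they were Mir181b-2 (0.19, 779 and 606 CPM), Mir186 (0.24, 868 and 581 CPM) and Mir467e (0.25, 778 and 579 CPM). Mir101a and Mir101b lay 1.76 apart. With 2 libraries this distance mostly reflects level.

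All miR-101 counts lay on the strand of the genes. Neither locus had a count on the opposite strand in either pup, which allows up to 0.132% of the Mir101a count and 0.0556% of the Mir101b count in pup 1, and 0.181% and 0.0762% in pup 3. Of the 331 detected loci, 90.6% had no opposite-strand count in either pup.

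The ratio of the 2 copies was nearly the same in both animals. Mir101b had 2.37 counts for each Mir101a count in pup 1 (95% exact interval 2.26 to 2.49) and 2.38 in pup 3 (2.24 to 2.52). Mir101a thus held 29.6% of the miR-101 counts in each pup, of 7663 counts in pup 1 and 5591 in pup 3. The log2 ratio of the copies differed between the pups by 0.0021, with a counting standard error of 0.056 (Fisher's exact test on the 2 by 2 table of counts, two-sided, p = 0.985). The 95% interval of this difference runs from −0.11 to 0.11 on the log2 scale, so ratio changes within that range could not be seen at this depth. This ratio does not depend on how the libraries are scaled.

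Other pairs of related loci, chosen because each lies in 2 places of the genome, spanned a wide range of ratios. Mir128-1 and Mir128-2, of the neuronal miR-128, had a ratio of 2.79 in pup 1 and 2.63 in pup 3. It differed between the pups by −0.08 on the log2 scale, with a counting standard error of 0.023. Mir29a and Mir29c, of a family that rises as the brain matures, had ratios of 1.39 and 1.45, a difference of 0.06 with a standard error of 0.11. Mir103-1 and Mir103-2 had 0.0928 and 0.111, from 9 and 7 counts of Mir103-1, a difference of 0.26 with a standard error of 0.76. Mir26b stood 258-fold above Mir26a-2 in pup 1 and 190-fold in pup 3, a difference of −0.44 with a standard error of 0.19. Of the 5 pairs the difference between the pups was smallest in size for miR-101, but the standard errors of the Mir29 and Mir103 pairs exceed their differences. Whether the pairs differ from miR-101 in this was not tested. Multi-mapping reads are in no row, so ratios of pairs with like sequences are ratios of uniquely placed reads. The same limit holds where a like locus lies outside the pair, as Mir26a-1 does (37 counts in pup 1 and 27 in pup 3).

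**Figure D3:**
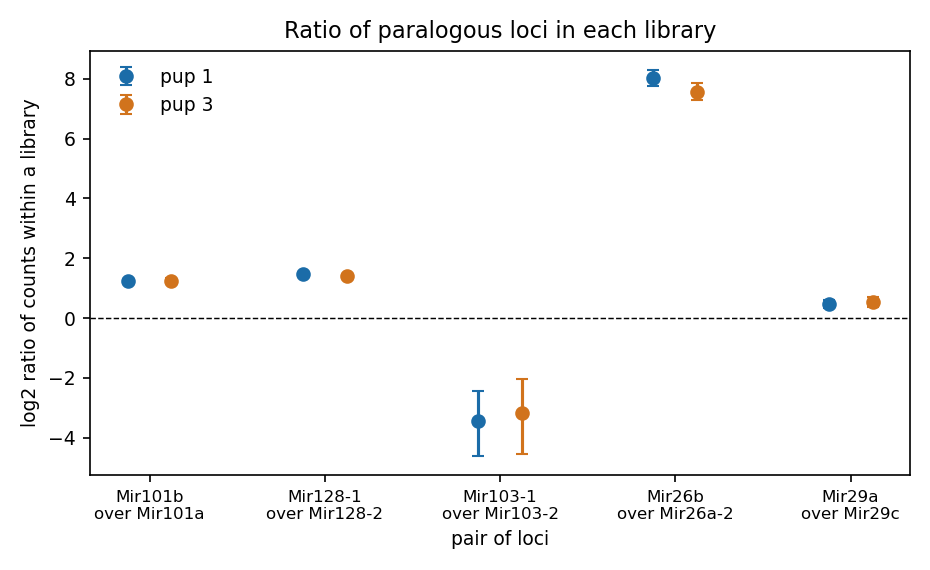
Log2 ratio of the counts of 2 related loci within a library, for miR-101 and 4 other pairs, in pup 1 (blue) and pup 3 (orange), with exact 95% intervals as bars. The miR-101 ratios of 2.37 and 2.38 overlay within their intervals, and pairs range from 0.0928 to 258.

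Relative to library totals, both copies were lower in pup 3 by the same amount. Mir101a had 828 CPM in pup 1 and 682 in pup 3, a log2 ratio of CPM + 1 of −0.28 with a counting standard error of 0.047 (Fisher's exact test, Benjamini-Hochberg adjusted over 400 loci, p = 5.33e-09). Mir101b had 1966 and 1621 CPM, a log2 ratio of −0.28 with a standard error of 0.030 (adjusted Fisher's exact p = 1.22e-19). Each side is 1 pup, so this test compares the libraries and not conditions. Of the 400 loci with at least 10 summed counts, 56.5% were called in either direction and 46.2% lower in pup 3, and the median log2 ratio of the 400 was −0.31. The miR-101 loci were therefore 0.03 (Mir101a) and 0.04 (Mir101b) above the median of all loci tested.

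The call ended on other scales. With TMM-adjusted library sizes the log2 ratios were −0.03 for Mir101a and −0.03 for Mir101b, with adjusted exact binomial p = 0.688 and 0.537, where 46.5% of loci were called in either direction. With DESeq2 size factors they were 0.03 and 0.04 (adjusted exact binomial p = 0.642 and 0.389), where 45.2% of loci were called. The median of all tested loci was −0.08 with TMM and −0.02 with size factors. On each of the 3 scales both copies lay 0.03 to 0.05 above that median. They also lay inside the middle 50% of detected loci, which ran from −0.55 to −0.03 with totals. A change of scale shifts the log2 ratios of all loci by nearly the same amount, so this place among loci is not a separate result on each scale. With totals, the SD over the pups was 13.7% of the mean for Mir101a and 13.6% for Mir101b, against a median of 18.1% over detected loci. Over all loci with a count, edgeR's common dispersion corresponded to a biological coefficient of variation of 0.215. That estimate used TMM-adjusted library sizes, so it is not on the scale of these SDs.

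**Figure D4:**
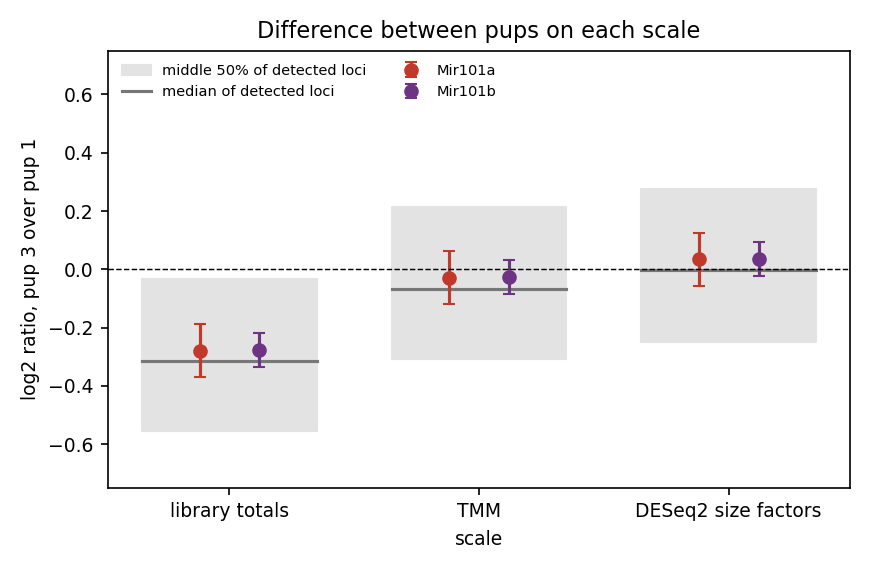
Log2 ratio of pup 3 over pup 1 for Mir101a (red) and Mir101b (purple) under 3 scales of the libraries, with bars of the 95% counting interval. Grey boxes and lines are the middle 50% and the median of the 331 detected loci. Both copies lie near the median, and a change of scale shifts copies and median nearly alike.

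**Figure D5:**
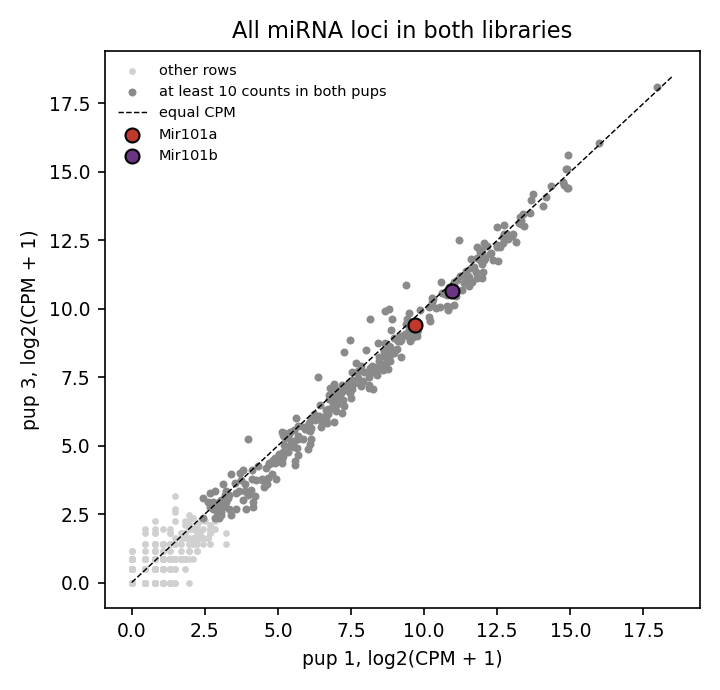
Level of every miRNA locus in pup 1 (x axis) and pup 3 (y axis) as log2(CPM + 1), with detected loci in dark grey and the dashed line at equal CPM. Mir101a (red) and Mir101b (purple) sit in the middle of the band of detected loci, just below the line.

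No other annotated mouse miRNA shares a full miR-101 seed. Of 1738 mature sequences in the RefSeq table, none but miR-101a-3p has its bases 2 to 8, and the same holds for miR-101b-3p. Bases 2 to 7, compared after the values were seen, are shared with miR-101a-3p by 1 sequence and with miR-101b-3p by another. Both are shown because the annotated seeds, shifted by 1 base, give different matches at these positions.
mmu-miR-144-3p: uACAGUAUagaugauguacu
mmu-miR-582-5p: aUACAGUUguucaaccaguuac
Mir144, a miRNA of red blood cells, had 69 counts in pup 1 and 47 in pup 3, or 22.3 ± 4.10 CPM. It did not pass the test with totals (log2 ratio −0.36, adjusted Fisher's exact p = 0.274). Mir582 had 61 and 25 counts, or 16.3 ± 8.44 CPM, and was lower in pup 3 with totals (log2 ratio −1.04, adjusted Fisher's exact p = 0.00225). With size factors Mir582 had −0.75 (adjusted exact binomial p = 0.0469). Both lay far below the miR-101 loci, whose lowest value was 682 CPM.

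Other miRNAs known to target Ezh2 included loci of far higher level than miR-101. The median level of the listed loci with a row was 713 CPM. That lay below the mean of either miR-101 copy, and within 1 SD of that of Mir101a. These are levels of uniquely placed reads. Of 20 listed loci 18 had a row, without Mirlet7e and Mirlet7f-1, and they summed to 156860 ± 20976 CPM, most of it from Mirlet7g (66273 ± 1811 CPM) and Mirlet7i (40763 ± 13693 CPM). Of 16 tested loci, 9 were higher in pup 3 (10.2% of all tested loci were), all of let-7, a family that acts against proliferation. Another 3 were lower (46.2% of all tested loci were), Mir26b and the synaptic Mir138-1 and Mir138-2, and 4 did not pass. The median log2 ratio of the list was 0.33, against −0.31 for all loci tested.

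Among miRNAs known to rise in maturing neurons, both miR-101 copies stood within the range of levels and above the list median of 366 CPM. All 15 listed loci had a row and 12 were detected. Mir137 (25786 ± 3504 CPM) and Mir128-1 (11051 ± 405 CPM) were highest, and Mir124a-3 was lowest, with 3 counts in pup 1 and 2 in pup 3. Multi-mapping reads are in no row, so the low counts of the Mir124a loci do not show absence of miR-124. The list median includes these loci and Mir29b-1 (7.01 ± 3.50 CPM) and Mir29b-2 (4.22 ± 0.73 CPM). The place of miR-101 above that median therefore holds for uniquely placed reads only. Of 13 tested loci 2 were higher in pup 3 and 8 lower with totals, where 10.2% of all tested loci were higher and 46.2% lower, with a list median of −0.35 against −0.31 for all loci. With TMM 2 were higher and 5 lower, where 20.5% of all tested loci were higher and 26% lower. With size factors 4 were higher and 4 lower, where 24.5% of all tested loci were higher and 20.8% lower. With totals Mir137 had a log2 ratio of −0.28, as both miR-101 copies did, and was called lower, while Mir29a had −0.75 and Mir29c −0.81. Size factors gave 0.04 for Mir137, there called higher, −0.43 for Mir29a and −0.50 for Mir29c.

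Markers fixed for the tissue were present for neurons, and loci of other cell types were measured too. Of 6 neuronal marker loci 4 were detected, and all 6 summed to 42895 CPM in pup 1 and 38966 in pup 3. With totals Mir128-1 and Mir128-2 were called higher in pup 3, Mir137 lower, and Mir124a-1 did not pass. Mir137 was also called lower with TMM but higher with size factors, and the other 3 calls held on both. The 3 blood vessel markers summed to 34960 and 39382 CPM, with Mir126a called higher in pup 3 and Mir143 and Mir145a lower with totals. Mir126a was called higher on the other scales too. Mir143 was not called with TMM and was higher with size factors, and Mir145a was not called on either. The 3 red blood cell markers summed to 88.2 and 71.3 CPM, with Mir451a called lower with totals and not called on the other scales. The 2 white blood cell markers with a row summed to 328 and 355 CPM, with neither called with totals and both called higher with TMM and with size factors. The liver marker Mir122 had 48.1 and 63.0 CPM, called higher on each scale. Of 4 muscle markers, Mir1a-1 and Mir133a-1 were at 0, and the list summed to 21.9 and 41.6 CPM, with Mir208b called higher and Mir206 not called. Since multi-mapping reads are in no row, marker counts at or near 0, also those of the Mir124a loci, do not show absence. The 5 epithelial markers summed to 3676 and 9324 CPM, with 5 of 5 called higher in pup 3 on each of the 3 scales, where 10.2% (totals), 20.5% (TMM) and 24.5% (size factors) of all tested loci were higher. The 3 multiciliated cell markers summed to 8186 and 4920 CPM, with 3 of 3 called lower on each scale, where 46.2%, 26% and 20.8% of all tested loci were lower. The part of these cell types in the miR-101 values was not tested.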

How the data were processed

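The authors deposited raw counts of reads per miRNA gene for each library. The assembly mm10 and annotation release M4 are given per the text deposited with the files. Which aligner and counter made them is not given in the sources used here. Column 3, read as the gene strand from its layout and values, was used, and the first 4 rows, which name no gene, were left out of library sizes. Gene-strand counts were 41.2% of 6657203 reads in pup 1 and 41.3% of 5883027 in pup 3. Of 1973 rows, 1894 matched an identifier of GENCODE M21 (GRCm38).

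CPM are counts scaled to 1000000 gene-strand counts. Intervals are exact Clopper-Pearson at 95%, or normal on the log2 scale for the difference of ratios, and counts of 0 allow up to 3 counts. The quasi-likelihood test of edgeR needs a contrast, which 1 group does not give, so loci with at least 10 summed counts were compared between the libraries by Fisher's exact test with Benjamini-Hochberg adjustment at 0.05, and under TMM or DESeq2 scaling by an exact binomial test. Log2 ratios are of CPM + 1. Hairpins were aligned globally in Biopython (match 2, mismatch −1, gap opening −3, gap extension −1). The test was checked on simulated data. Labels do not say whether the pups came from separate litters. The p-values measure only counting error between these 2 libraries and hold no estimate of the spread between animals.

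Members, lists and tests were chosen with earlier results of these data known. The rule for named loci takes both members, their seed relatives, the 3 loci nearest in level to each, the 2 highest of each list, miRNA genes within 100 kb, hosts, and the loci of the pairs. Other names, such as loci next in rank or the Mir138 and Mir124a loci, were added with values known. Alternatives were the unstranded column, other denominators, scalings, pseudocounts and filters, and leaving out a replicate. Tools were scipy 1.17.1, pandas 2.3.3, Biopython 1.88 and RNAfold 2.7.2 in or beside Python 3.11.15, and edgeR 4.0.16 and DESeq2 1.42.0 in R 4.3.3.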

Additional observations from a re-analysis of the deposited data

How the results depend on the processing

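The ratio of Mir101a to Mir101b was 0.421 with the gene strand and with both strands, and ran from 0.4208 to 0.4214 when either replicate was left out. Neither locus had an opposite-strand count, so the ratio with both strands could not differ. With 2 pups, values without a replicate are those of the remaining pup. Leaving out a replicate gave 0.0682 to 0.0828% for Mir101a, 0.162 to 0.197% for Mir101b and 336 to 360 detected loci. With all reads as the denominator the shares were 0.0311% (Mir101a) and 0.0739% (Mir101b), and without the most abundant locus, Mir99a, they were 0.103% and 0.245%. The lower level in pup 3 depended on the scale: with TMM the log2 ratios were −0.029 (Mir101a) and −0.027 (Mir101b), not called, and with DESeq2 size factors they were 0.034 and 0.036, of the opposite sign and not called. The cause was not tested. Under both strands together and totals without Mir99a, both stayed lower and called. The same held with other pseudocounts and other filters on low counts, which could hardly alter the call. Pseudocounts enter the log2 ratio and not the test, and filters alter only the adjustment of its p-values. Of the loci called between the pups, 18.1% were higher in pup 3 with totals, 44.1% with TMM and 54.1% with size factors. Among loci known to rise in maturing neurons, 2 were higher and 5 lower with TMM (20.5% and 26% of all tested loci were), and 4 higher and 4 lower with size factors (24.5% and 20.8%), scalings added for the lists after the data were seen. No paired analysis was possible because the series holds 1 group. Counting error, the 2 pups and reads that map to several places all limit the levels, and their parts were not compared.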

Other observations

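The 7 bases of the miR-101a-3p seed, ACAGUAC, occur anywhere in 4 of the 1738 mature sequences of the RefSeq table. Apart from the miR-101 sequences this is miR-503-5p, where they lie outside bases 2 to 8. Those of the miR-101b-3p seed, UACAGUA, occur in 3, and apart from miR-101 this is miR-144-3p, where they start at base 1. Mir503, named after its values were seen, had 229 counts in pup 1 and 161 in pup 3, or 74.9 ± 12.1 CPM, and ranked 220.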
